A study of Mus musculus with 21 samples.

Results

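Conventional dendritic cells (cDCs) of the mouse spleen fall into cDC1, which cross-present cell-derived antigens to CD8 T cells, and cDC2, which prime CD4 T cells, and the comparison of the transcriptomes of these subsets is described here. The cells were immature cDC1 and cDC2 sorted from the spleen of C57BL/6 mice aged 6 to 8 weeks, with no further treatment or genetic change given by the labels. All libraries labelled as splenic were taken, that is 5 of cDC1 and 3 of cDC2 among the 21 libraries of the series, which also holds immature and mature thymic cDCs. Splenic cells were enriched with CD11c beads after enzymatic digestion, and both subsets were sorted as CCR7- and Esam- cells. The cDC1 gate was CD11c+ CD24+ CD11b- and lacked F4/80, Ly6g, Ly6c, DX5 and B220, whereas the cDC2 gate was CD11c+ CD11b+ CD24- and lacked B220. The labels thus name F4/80, Ly6g, Ly6c and DX5 as excluded for cDC1 only, whereas the study's methods list F4/80 among the antibodies for sorting its cDC subsets. The study's results define both subsets as F4/80-, while its RNAseq methods name only CCR7 and ESAM for the sort. Cells were pooled from several mice for sorting, and the libraries carry pool numbers rather than animals, so that p values measure the spread between samples. The spread of each gene was estimated over all 20 samples of the 6 groups, thymic cDCs included, and not over the splenic samples alone. In bulk RNA of sorted cells, fewer cells of a type and less RNA per cell cannot be told apart.

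The cDC1 lineage depends on the transcription factors IRF8, BATF3 and ID2, and its members detect dead cells through CLEC9A and double-stranded RNA through TLR3. They also carry XCR1, the receptor of the chemokine XCL1 that CD8 T cells and NK cells release. The cDC2 depend on other factors, among them IRF4, ZEB2, RELB and KLF4. A splenic cDC2 fraction with ESAM requires Notch2 signals, and the Esam- gate leaves out the cells with surface ESAM.

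Between 14854006 and 35509965 reads were recovered per splenic library from the deposited values, which are read counts divided by a size factor of the library and are called normalized counts here. Replicates 4 and 5 of cDC1 share pool, index and lane, and a chi-square test of their reads gave 2.44 per degree of freedom, while the 9 other pairs of cDC1 libraries gave 25.0 to 176. They were averaged as replicate 4, leaving 4 cDC1 and 3 cDC2 samples. Replicates 1 and 4 of cDC1 also carry the same pool number, so that the 4 cDC1 samples came from 3 pools, and with 1 cDC1 sample per pool 2340 genes were called in place of 2489. Among cDC1, replicate 3 stood apart, with 2193 genes more than 2-fold from the mean of the others against 829 to 1530 genes for the rest of the group. Among cDC2, the corresponding number was 2395 genes for replicate 2 against 1070 and 1677 genes. Replicates 1 and 2 of both subsets were sequenced in lane 5 and the other samples in lane 8. Of 14970 genes tested with limma, a gene was called when its adjusted p was below 0.1 and its change exceeded 2-fold. Fold changes are on the log2 scale of the normalized count plus 1, as cDC2 over cDC1, which understates the change of genes with low counts. In all, 16.6% of the genes were called, 9.93% as higher and 6.70% as lower in cDC2, and the median log2 fold change of all tested genes was 0.02. Without cDC1 replicate 3 the comparison called 2532 genes, and without cDC2 replicate 2 the number was 2532 as well. Every called gene kept its direction within lane 5, and 2487 of the 2489 within lane 8, against 87.9% and 85.0% of all tested genes. The genes were called on these same samples, so that these shares are no independent check, and within the single lanes the fold changes of 21 and 47 of the 212 named genes moved by more than the spread between replicates.

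The genes of the sorted proteins followed the gates, which is no finding of the comparison. Cd24a had normalized counts of 11375, 11347, 7314 and 9499.9 in the 4 cDC1 samples and 571, 369.9 and 396 in the 3 cDC2 samples. Itgam, which encodes CD11b, had counts of 60.7, 30.6, 36.9 and 27.4 in cDC1 and 1429, 1802 and 1512 in cDC2. Itgax, which encodes CD11c, was present in both subsets, with a log2 fold change of 0.94. Transcripts of some proteins named in the gates as excluded were nonetheless present and differed. Ccr7, the receptor that guides cDCs to lymph nodes and T cell zones, had counts of 409.7, 261, 726 and 341 in cDC1 and 3907, 2008 and 5433 in cDC2. For Emr1, which encodes F4/80, the counts were 142, 118, 83.1 and 127 in cDC1 and 4486, 4192 and 4923 in cDC2. Ptprc, which encodes CD45 and its B220 form, had a log2 fold change of 1.42, while Esam was between 16.8 and 86.9 in all samples, with overlapping subsets. Ly6g had at most 1.76 normalized counts in any splenic sample.

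The subset labels were also checked with lists of known markers. The cDC1 list holds the gate gene Cd24a, and the cDC2 list holds Sirpa and the gate genes Itgam and Esam. The study's methods name Sirpα among the antibodies of the sort, so that part of the counts and sums below follows from the sorting. Of 14 cDC1 markers, 13 were lower in cDC2 and 1, Batf3, changed by less than 2-fold, whereas of 14 cDC2 markers 13 were higher and Esam was not called. Xcr1 (ENSMUSG00000060509, chr9:123852315-123862029) had normalized counts of 12175, 15629, 8385 and 14077 in cDC1 against 64.1, 50.6 and 26.1 in cDC2. Sirpa (ENSMUSG00000037902, chr2:129592835-129632228), which encodes a receptor for the don't-eat-me protein CD47, had counts of 749, 1126, 1548 and 946 in cDC1 and 20847, 18967 and 28215 in cDC2. For both markers the subsets did not overlap, with log2 fold changes of -8.09 ± 0.40 (SE) and 4.40 ± 0.24 (SE). Cd8a, the marker that gave splenic cDC1 their older name of CD8+ dendritic cells, was 16834, 16442, 15967 and 16368 in cDC1 and 286, 218 and 156 in cDC2. The summed level of the cDC1 list ranged from 269837 to 314266 in cDC1 and from 38823 to 59538 in cDC2, and that of the cDC2 list from 6821 to 7914 in cDC1 and from 76808 to 91694 in cDC2.

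Large changes went in both directions. Among the called genes, 158 were more than 16-fold higher and 135 more than 16-fold lower in cDC2, and 29 and 39 genes exceeded 64-fold. Every cDC2 sample lay above every cDC1 sample for 1359 of the 1486 genes called higher, and below for 960 of the 1003 called lower, while over all tested genes 17.0% lay above and 14.7% below. The 12 largest rises and the 12 largest falls among called genes with a mean count of at least 100 and no overlap are described next.

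**Figure D1:**
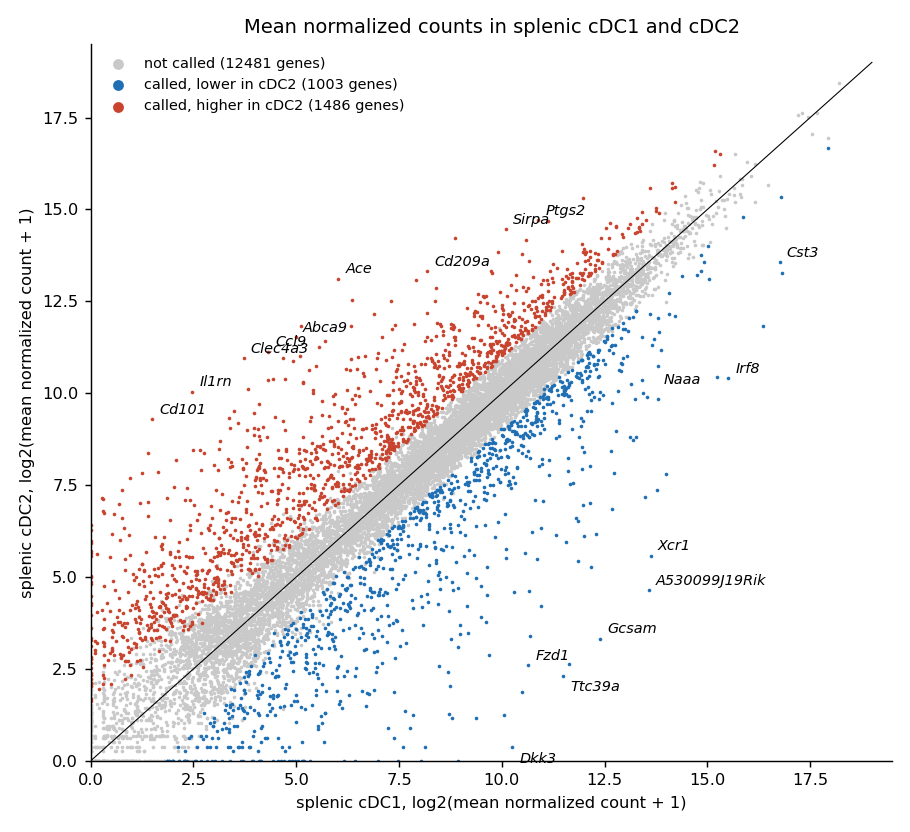
Mean normalized count of each of 14970 tested genes in splenic cDC1 (4 samples, x axis) and cDC2 (3 samples, y axis), as log2 of the mean plus 1, with called genes in color and the diagonal marking equal means. The 1486 red genes lie above and the 1003 blue genes below the diagonal, with Cd101 and Il1rn among the farthest above and Dkk3, Ttc39a and Gcsam among the farthest below.

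Of the genes higher in cDC2, Cd101 (ENSMUSG00000086564, chr3:100993529-101029556), which encodes an inhibitory immunoglobulin-type receptor of myeloid and T cells, had normalized counts of 0, 0.986, 3.69 and 2.56 in cDC1 and 567, 662 and 655 in cDC2. Its log2 fold change was 8.03 ± 0.78 (SE) with limma adjusted p = 1.15e-07, the largest rise among these genes. Il1rn, which encodes the antagonist of the interleukin-1 receptor, had counts of 6.18, 1.97, 4.62 and 5.47 in cDC1 and 877, 1069 and 1199 in cDC2. Both genes were close to 0 in every cDC1 sample. The lectin receptors Clec4a3 and Clec4a1 of the DCIR family rose by 7.48 and 6.82 on the log2 scale, and the DC-SIGN family member Cd209b by 6.26. Ace, which encodes angiotensin-converting enzyme, had counts of 54.6, 56.2, 103 and 43.1 in cDC1 and 9757, 5542 and 11336 in cDC2, with replicate 2 lowest among cDC2. The chemokine gene Ccl9 rose by 6.89, the activating receptor gene Cd300ld by 6.38, and the phospholipid transfer protein gene Pltp by 6.36. The remaining rises were the tetraspanin partner gene Ptgfrn (7.17), the lipid transporter gene Abca9 (6.53) and Scel (6.50), which encodes sciellin of the cornified envelope. Cd101, Ptgfrn and Scel had between 0 and 4.93 normalized counts in cDC1, so that their fold changes depend on the added 1.

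Among the genes lower in cDC2, Dkk3 (ENSMUSG00000030772, chr7:112116017-112159057), a secreted member of the dickkopf family of Wnt regulators, had normalized counts of 1471, 1004, 1429 and 985 in cDC1 and 0.915, 0 and 0 in cDC2. With 3 reads per sample as the floor, its level was at least 386-fold lower in cDC2. Gcsam, which encodes a signaling protein known from germinal center B cells, was 5146, 6443, 3666 and 6034 in cDC1 and 14.6, 10.6 and 1.63 in cDC2. Fzd1, a frizzled receptor of Wnt ligands, had counts of 1367, 1582, 1882 and 1554 in cDC1 and 4.58, 2.50 and 8.15 in cDC2. Trabd2b, which encodes a protease acting on Wnt proteins, was at 0 in all cDC2 samples and at least 153-fold lower. The proprotein convertase gene Pcsk5 was also at 0 in all cDC2 samples, at least 81.9-fold lower. Further falls were the phospholipase C gene Plce1 (-8.98), the adaptor gene Clnk (-8.61), the prolyl hydroxylase gene Leprel1 (-9.16), Ttc39a (-9.31), Gramd2 (-8.98), the orphan receptor gene A530099J19Rik (-8.98) and Xcr1 (-8.09). In cDC1 these 12 genes had at least 208 normalized counts in each sample, and in cDC2 at most 64.1.

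Lists of genes with known roles, 23 in all besides the marker lists, were then counted. Of the 745 tested genes in these 23 lists, 262 were called higher and 81 lower in cDC2, and 22 stand in more than 1 of them. The counts are to be read against 9.93% higher and 6.70% lower among all tested genes, and the lists were chosen with earlier results of these data known. 

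Of 49 transcription factors of the dendritic cell and related lineages, 21 were higher, 3 were lower and 25 were not called, with a median log2 fold change of 0.86. Irf8 (ENSMUSG00000041515, chr8:120736358-120756694), the factor on which cDC1 depend throughout life, had normalized counts of 38102, 43815, 60982 and 43436 in cDC1 and 1439, 824 and 1796 in cDC2. Id2, an inhibitor of E proteins, had 11092, 12939.5, 7434 and 12752 in cDC1 and 1068, 986 and 1001 in cDC2. The other lower factor was Mycl, which supports cDC1 expansion, with a log2 fold change of -2.23. For all 3 the subsets did not overlap, and limma adjusted p was between 1.47e-12 and 2.01e-05.

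Batf3, the partner of IRF8 in cDC1, differed less than these. Its counts were 1238, 1089.8, 2197 and 1716 in cDC1 and 1076, 500.4 and 1059 in cDC2, lower in each cDC2 sample but by less than 2-fold in the fit (-0.86 ± 0.27 (SE), limma adjusted p = 0.0223). Leaving out cDC1 replicate 2, cDC2 replicate 1 or cDC2 replicate 3 took it past 2-fold. Zbtb46, which marks both cDC subsets, had overlapping counts with a log2 fold change of -0.27. Among higher factors, Irf4 (ENSMUSG00000021356, chr13:30749226-30766976), the factor most associated with cDC2, had counts of 1410.3, 1174, 1412 and 989 in cDC1 and 6001, 5535 and 5439 in cDC2. Zeb2, a repressor that restrains the cDC1 fate, had 362, 336, 353 and 273 in cDC1 and 5696, 5984 and 5889 in cDC2. Its exons overlap those of the antisense gene Zeb2os, and the strand setting of the counting is not given in the sources used here. Relb, the non-canonical NF-kB subunit, rose by 2.24, its canonical partner Rel by 1.46, Klf4 by 1.76, Runx3 by 1.29 and the Ets factor Spib by 2.44. Larger folds were those of the liver X receptor gene Nr1h3 (4.35), the Ikaros family gene Ikzf3 (4.31) and Prdm1 (4.06), which encodes BLIMP1. Exons of Nr1h3 overlap those of Gm13783 on the same strand. Runx3 fell below the 2-fold limit without cDC2 replicate 3, at a log2 fold change of 0.98.

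**Figure D2:**
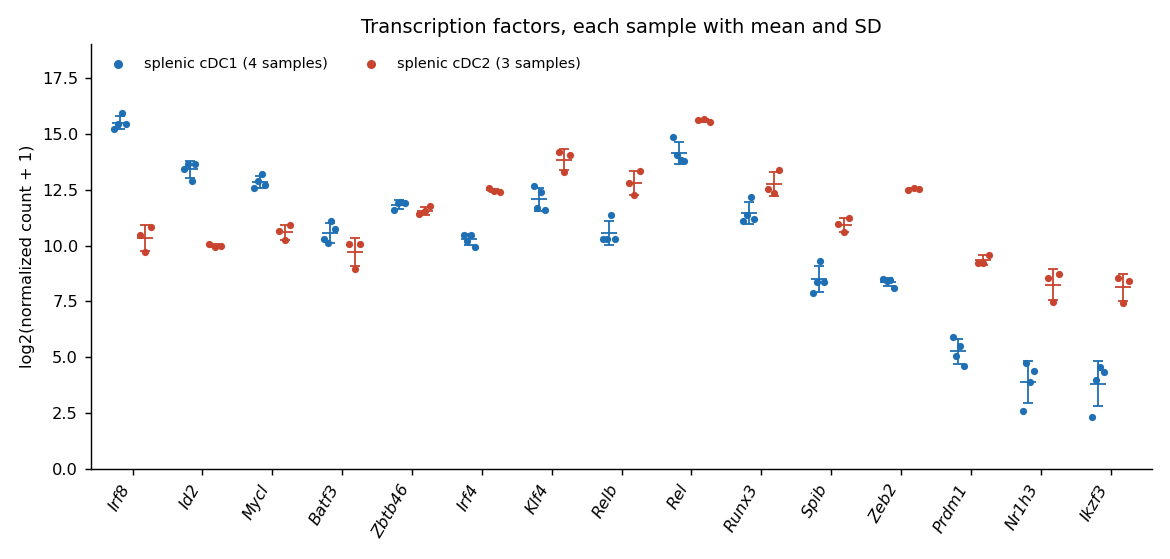
Normalized counts of 15 transcription factors as log2 of the count plus 1 in each splenic sample (blue, cDC1; red, cDC2), with the mean and SD of each subset. Irf8, Id2 and Mycl lie higher in cDC1, Batf3 and Zbtb46 close together, and the 10 factors from Irf4 to Ikzf3 higher in cDC2.

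The Toll-like receptors, which bind microbial lipids, proteins or nucleic acids, split between the subsets. Of 29 receptors and adaptors, 9 were higher and 5 lower in cDC2, with a median log2 fold change of 0.37. Tlr3, the endosomal receptor of double-stranded RNA, had counts of 6499.9, 9323, 3416 and 6834 in cDC1 and 83.3, 168 and 91.3 in cDC2. Tlr11 and Tlr12, which bind profilin of Toxoplasma and related parasites, had log2 fold changes of -3.82 ± 0.24 (SE) and -5.43 ± 0.32 (SE). Replicate 3 was lowest among cDC1 for Tlr3 and Tlr11 but highest for Tlr12, at 2423. In cDC2, the endosomal receptors of single-stranded RNA were higher. Tlr7 had counts of 107, 158, 134 and 105 in cDC1 and 2063, 2721 and 1768 in cDC2. Tlr8 had 4.12, 15.8, 2.77 and 8.50 in cDC1 and 377, 447 and 420.4 in cDC2. Neither gene overlapped between subsets. The surface receptors Tlr1, Tlr2 and Tlr6, which pair to bind bacterial lipopeptides, rose by 3.71, 1.57 and 1.85, and the flagellin receptor gene Tlr5 by 2.04 (limma adjusted p = 0.0189, and not called with a pseudocount of 0.1). Tlr9, the receptor of CpG DNA, and Tlr13, the receptor of bacterial ribosomal RNA, had overlapping counts in the subsets, with log2 fold changes of 0.24 ± 0.29 (SE) and 0.18 ± 0.24 (SE). Likewise Unc93b1, the chaperone of the endosomal receptors, had a log2 fold change of -0.33 (limma adjusted p = 0.376). Of the adaptors, Irak3, a brake on signaling, rose by 4.36, and Ticam2, which bridges TLR4 to the interferon pathway, by 3.03. Exons of Ticam2 overlap Tmed7 on the same strand, so that reads may be shared.

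Of 29 cytosolic sensors and inflammasome genes, 14 were higher and 1 lower in cDC2, with a median log2 fold change of 0.68. The RNA sensors Ddx58, which encodes RIG-I, and Ifih1, which encodes MDA5, were both higher. Ddx58 had counts of 108, 122, 90.5 and 80.3 in cDC1 and 1737, 2321 and 2156 in cDC2, and Ifih1 a log2 fold change of 1.49 ± 0.19 (SE). The inflammasome genes Nlrc4, which works with flagellin-binding NAIP proteins, and Nlrp3 rose by 2.97 and 2.05. Aim2, the sensor of cytosolic DNA, had a log2 fold change of 0.31 with overlapping counts. The lower gene was Ifi205, of the same PYHIN family, with 12534, 15183, 5924 and 12099 in cDC1 and 189, 141 and 97.8 in cDC2. Reads of Ifi205 may be shared with near-identical members of that family.

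**Figure D3:**
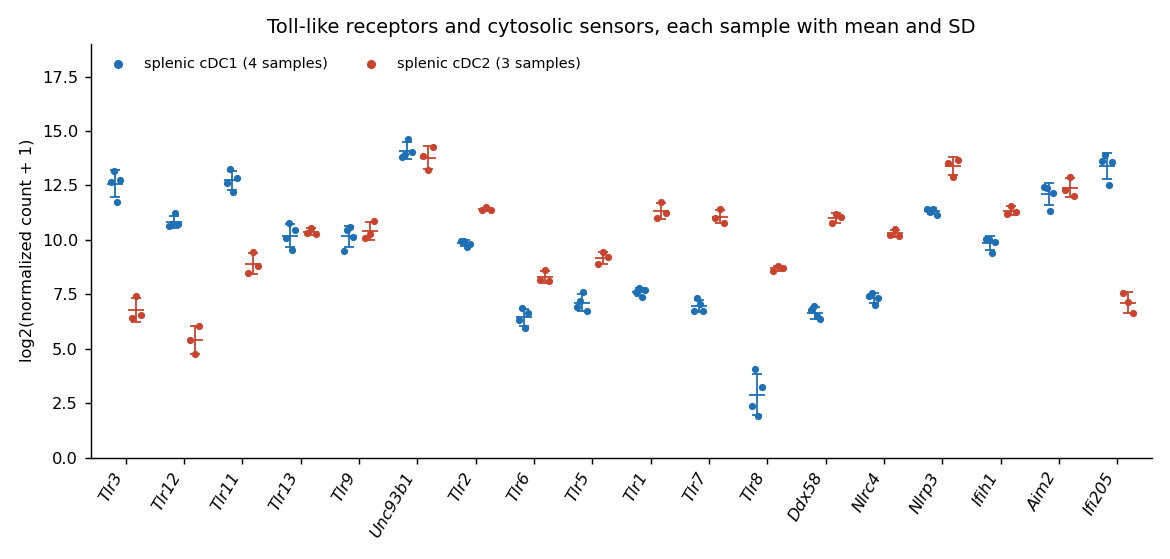
Normalized counts of 12 Toll-like receptor pathway genes and 6 cytosolic sensors as log2 of the count plus 1 in each splenic sample (blue, cDC1; red, cDC2), with the mean and SD of each subset. Tlr3, Tlr12, Tlr11 and Ifi205 lie higher in cDC1, Tlr13, Tlr9, Unc93b1 and Aim2 overlap, and the others lie higher in cDC2.

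Of 34 tested C-type lectin receptors, which bind glycans of microbes or ligands of dying cells, 23 were higher and 5 lower in cDC2, with a median log2 fold change of 3.07. Lower in cDC2 were Clec9a, the receptor of exposed F-actin on dead cells, Ly75, which encodes the endocytic receptor DEC-205, and Cd207, which encodes langerin. Clec9a had counts of 14642, 16581, 10595 and 15113 in cDC1 and 827, 996 and 924 in cDC2. For Ly75 the counts were 3792, 3811, 2603 and 3361 in cDC1 and 159, 221 and 186 in cDC2. Cd207 had 934, 767, 770.2 and 812 in cDC1 and 5.49, 6.87 and 6.52 in cDC2. All 3 genes were separate between subsets, and exons of Clec9a overlap those of Clec1b on the same strand. The DCIR relative Clec4b2 fell farthest within the list, from 473, 462, 289 and 528 in cDC1 to 3.66, 0 and 0 in cDC2, in contrast to its neighbors in the same gene family. Higher in cDC2 was Clec7a, which encodes the beta-glucan receptor dectin-1, with 2248, 2472, 1882 and 2246 in cDC1 and 21588, 36252 and 21604 in cDC2. Cd209a, a mouse relative of DC-SIGN, had 203, 287, 339 and 327 in cDC1 and 9985, 10812 and 9695 in cDC2. The galactose-type lectins Clec10a and Mgl2 rose by 5.60 and 5.97, and the DCIR genes Clec4a2 and Clec4a4 by 4.18 and 4.55. The Clec4a, Cd209, Sirpb1, Cd300 and Ifitm genes lie in families of close copies, whose reads the counting could have divided among members.

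Of 12 tested Fc receptor genes, 7 were higher and 3 lower in cDC2. Fcer1g, the signaling chain shared by activating Fc receptors, rose by 3.29 ± 0.25 (SE). The IgG receptor genes Fcgr3 and Fcgr4 rose by 4.85 and 2.90, and the high-affinity receptor gene Fcgr1 by 4.32. Fcrla, an intracellular relative of Fc receptors known from B cells, had counts of 699, 704, 626 and 825 in cDC1 and 15.6, 16.9 and 9.78 in cDC2. Of 47 inhibitory and activating myeloid receptors, 29 were higher and 3 lower, and the count of lower genes was 1 without cDC1 replicate 2, cDC1 replicate 4 or cDC2 replicate 1. Sirpb1a, an activating partner of SIRPA, had 248, 184, 259 and 264 in cDC1 and 9019.7, 9528 and 7590.2 in cDC2. Treml4, a receptor on splenic cDC1 and on monocytes, had 1791, 2043, 2102 and 1829.6 in cDC1 and 693, 274 and 481 in cDC2, and was lower in every cDC2 sample. The inhibitory receptor genes Siglece, Cd22, Lair1 and Cd300a rose by 4.93, 3.08, 2.64 and 2.20, and Ptpn6, which encodes the phosphatase SHP-1 that such receptors recruit, by 1.57. Tyrobp, which encodes the activating adaptor DAP12, rose by 1.29.

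Of 36 genes of class I peptide loading and cross-presentation, 8 were lower and 0 higher in cDC2, with a median log2 fold change of -0.42. For the 0 higher, edgeR also called 0, and 2 members had every cDC2 sample above every cDC1 sample. Wdfy4, required for cross-presentation of cell-associated antigens, had counts of 95296, 114562, 137628 and 102115 in cDC1 and 38695, 33683 and 52880.3 in cDC2. Rab39, which encodes a vesicle GTPase, had a log2 fold change of -2.70, and Pdia3, which encodes the peptide-loading partner ERp57, one of -1.52. The immunoproteasome genes Psmb8 and Psmb9 had log2 fold changes of -1.06 and -1.38, and the peptide transporter genes Tap1 and Tap2 of -0.79 and -1.09, of which that of Tap1 was below 2-fold. Psmb9 and Tap1 overlap each other on opposite strands. Replicate 3 was highest among cDC1 and replicate 2 lowest among cDC2 for these 4 genes, with Tap2 at 5113, 4773, 9071 and 5147 in cDC1 and 3504, 1567 and 3733 in cDC2. Without cDC1 replicate 3, 5 members were lower and 1 higher, and without cDC2 replicate 2, 5 were lower and 2 higher, with Tap2 and Psmb8 below 2-fold in both cases. H2-K1, a classical class I heavy chain, had overlapping counts and a log2 fold change of 0.75.

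Of 20 class II presentation genes, 5 were higher and 0 lower. The class II chain gene H2-Aa and the invariant chain gene Cd74 were not among them, with log2 fold changes of 0.34 ± 0.31 (SE) and 0.24 ± 0.38 (SE) and overlapping counts, and the master regulator gene Ciita had one of 0.12 ± 0.32 (SE). For 0 lower, edgeR called 0 as well, and no member had every cDC2 sample below every cDC1 sample. H2-Eb2, a less studied class II beta chain, had counts of 444, 344, 405 and 325 in cDC1 and 3195, 2843 and 3079.7 in cDC2. The others were H2-DMb2 (1.49), a beta chain of the peptide editor, and the lysosomal enzyme genes Lgmn (2.30), Ctss (1.22) and Ifi30 (1.13), which encode legumain, cathepsin S and the thiol reductase GILT. Ifi30, at limma adjusted p = 0.0517, was no longer called without cDC1 replicate 1 or 4, without cDC2 replicate 1 or 3, or with 1 cDC1 sample per pool. Of 9 genes of the NADPH oxidase, which makes superoxide in phagosomes, 3 were higher and 0 lower in cDC2. Cybb, the catalytic subunit, had 1517, 1602, 1601 and 1447 in cDC1 and 18206, 19134 and 17902 in cDC2. The subunit genes Cyba and Ncf4 had log2 fold changes of 0.66 and -0.54. Without cDC2 replicate 2, 5 of the 9 were higher.

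Of 32 cathepsin, cystatin and serpin genes, 10 were lower and 6 higher in cDC2. Cst3, which encodes the cathepsin inhibitor cystatin C, had counts of 99645, 83629, 147175 and 112306 in cDC1 and 15086, 8518 and 12899 in cDC2. The serpin genes Serpinb8 and Serpinb6b had log2 fold changes of -5.16 and -4.18. Naaa, a lysosomal amidase of fatty acid ethanolamides, had 36723, 38257, 40732 and 39122 in cDC1 and 1558, 1189.6 and 1431 in cDC2. Among the rises, Cst7, which encodes the cathepsin inhibitor cystatin F, had 4.12, 29.6, 13.9 and 18.1 in cDC1 and 201, 168 and 220.0 in cDC2. The lysosomal protease genes Ctsa and Ctsd rose by 2.19 ± 0.28 (SE) and 1.96 ± 0.44 (SE), and exons of Ctsa overlap those of Pltp on the other strand.

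Of 44 chemokine and positioning receptors, 17 were higher and 7 lower in cDC2. Besides Xcr1, the lower ones included Cxcr3, the receptor of CXCL9 and CXCL10, with 338, 585, 736 and 603 in cDC1 and 20.1, 14.4 and 17.9 in cDC2. P2ry14, a receptor of UDP-glucose, had 4077, 4275, 2765 and 3714 in cDC1 and 54.9, 40.0 and 32.6 in cDC2. The orphan receptor gene Gpr171 and the gut-homing receptor gene Ccr9 had log2 fold changes of -4.13 and -2.60. Gpr183, the oxysterol receptor EBI2 that places splenic cDC2 in the bridging channels, had 804, 690.4, 859.8 and 681 in cDC1 and 2859.8, 2426 and 2531 in cDC2. S1pr5, a receptor of sphingosine 1-phosphate that guides monocytes and NK cells, had 0, 0, 0 and 0.803 in cDC1 and 238, 39.4 and 143 in cDC2, at least 56.3-fold higher. The fractalkine receptor gene Cx3cr1, the leukotriene B4 receptor gene Ltb4r1 and the CCL20 receptor gene Ccr6 rose by 3.64, 4.78 and 3.72. Of 24 chemokine ligands, 5 were higher and 2 lower, and Cxcl9 alone was lower when cDC1 replicate 1, 2 or 4 or cDC2 replicate 2 or 3 was left out. Cxcl9, a ligand of CXCR3, had 14674, 13126, 7607 and 11714 in cDC1 and 964, 1118 and 800.1 in cDC2, whereas the CC chemokine genes Ccl5 and Ccl3 rose by 4.39 and 2.83.

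Of 43 cytokine genes and soluble antagonists, 15 were higher and 6 lower in cDC2. Il12b, which encodes the shared subunit of IL-12 and IL-23, had 888, 558, 424 and 492 in cDC1 and 48.5, 60.6 and 48.9 in cDC2. Il15, a growth factor of NK and memory CD8 T cells, had a log2 fold change of -1.65. Il1b rose by 1.96, beside the rise of its antagonist Il1rn, with counts of 9781, 13483, 12166 and 14213 in cDC1 and 37896, 62793 and 45958 in cDC2. Other rises were those of the gp130 cytokine gene Osm (5.65), the angiogenic factor gene Vegfa (4.50), the 4-1BB ligand gene Tnfsf9 (2.74) and the lymphotoxin gene Ltb (2.53). Of 62 cytokine receptors, 20 were higher and 4 lower, or 2 lower without cDC2 replicate 3. Flt3 and Kit, receptors of cDC growth factors, changed by less than 2-fold, with log2 fold changes of -0.42 ± 0.12 (SE) and 0.13 ± 0.14 (SE). Csf1r, the receptor of macrophage colony-stimulating factor, had 607, 964, 1417 and 849.7 in cDC1 and 14512, 10295 and 18938 in cDC2. The granulocyte factor receptor gene Csf3r had 19.6, 21.7, 15.7 and 19.1 in cDC1 and 1281, 1046 and 1608 in cDC2. The decoy receptor gene Il1r2 and Il21r rose by 3.53 and 4.42. Ifnlr1, the receptor of type III interferons, had 159.6, 219.9, 161 and 148 in cDC1 and 22.9, 17.5 and 32.6 in cDC2.

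Of 27 costimulatory and coinhibitory ligands, 9 were higher and 5 lower. Cd86, a ligand of CD28 and CTLA-4, had 9558, 9170.1, 6759 and 8711 in cDC1 and 3154, 3513 and 3336 in cDC2, a log2 fold change of -1.35 ± 0.15 (SE). Cd80, the other ligand of these receptors, had a log2 fold change of 0.96 ± 0.18 (SE), just under 2-fold. Cd276, which encodes B7-H3, was at 0 in all cDC1 samples and at 36.6, 29.4 and 81.5 in cDC2, at least 19.7-fold higher. Btla, the partner of HVEM, was lower (-2.35). The PD-1 ligand genes Cd274 and Pdcd1lg2 rose by 2.55 and 3.74, and the ICOS ligand gene Icosl by 1.26.

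Of 44 integrin and adhesion genes, 8 were lower and 8 higher, Itgam and Emr1 of the gates among the latter. Itgae, which encodes CD103 of the E-cadherin receptor, had 1760.3, 1480.3, 1845 and 1349.5 in cDC1 and 36.6, 15.0 and 19.6 in cDC2. Itga1, of a collagen receptor, had a log2 fold change of -4.39. Cadm1, which binds CRTAM on T cells, and the tetraspanin gene Cd81 had log2 fold changes of -4.45 and -2.55. Higher in cDC2 were Cadm3 (3.06), a relative of Cadm1, F11r, which encodes the junctional protein JAM-A (4.63), and the vitronectin receptor gene Itgb3 (2.55). Emr4, an adhesion receptor related to F4/80, had 95.7, 93.7, 52.6 and 80.2 in cDC1 and 5858, 6616 and 5268 in cDC2. Of 31 Notch pathway genes, 6 were lower and 6 higher. The receptor gene Notch4 had 3238, 3598, 5861 and 3392 in cDC1 and 106, 81.8 and 179 in cDC2, with cDC1 replicate 3 highest. Dtx1, a target of Notch, had 66.9, 67.1, 293 and 72.1 in cDC1 and 2098, 1239 and 2607 in cDC2, where cDC1 replicate 3 was again far above the other cDC1 samples. The ligand gene Jag1 rose by 3.37 and Cd4, a Notch-dependent surface marker of splenic cDC2, by 3.19. Without cDC2 replicate 3, 3 members were higher and 4 lower.

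Of 35 genes of phagocytosis and scavenging, 14 were higher and 3 lower. Cd36, a receptor of lipids and apoptotic cells, had 10872, 10039, 5368 and 8956 in cDC1 and 704, 246 and 393 in cDC2. Axl, a receptor tyrosine kinase for dying cells, and the scavenger receptor genes Lrp1 and Msr1 rose by 4.00, 4.42 and 4.65. Of 14 complement genes 6 were higher and 0 lower (edgeR called 8 and 0), with C3 at 9.26, 55.2, 29.6 and 44.5 in cDC1 and 1213, 752 and 1721 in cDC2. Of 24 eicosanoid genes, 11 were higher and 3 lower in cDC2, or 1 lower without cDC2 replicate 1. Cyp4f18, which encodes a leukotriene B4 hydroxylase, had 9.26, 10.8, 18.5 and 5.15 in cDC1 and 768, 312 and 658 in cDC2. Ptgs2, the inducible cyclooxygenase, had 1823, 2365, 1597 and 1789 in cDC1 and 17217, 40284 and 22591 in cDC2, and the 5-lipoxygenase gene Alox5 rose by 4.43. Of the prostaglandin E2 receptor genes, Ptger3 had a log2 fold change of 4.70 and Ptger2 one of -3.63. Pla2g7, a phospholipase that inactivates platelet-activating factor, rose by 4.02.

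The interferon-stimulated genes form a set induced through interferon receptors, IRF9 and STAT factors, which bind the interferon-stimulated response element of their promoters. Of 46 such genes, 29 were higher and 1 lower in cDC2, with a median log2 fold change of 1.72 against 0.02 for all genes. Leaving out cDC1 replicate 1 gave 27 higher and 2 lower, cDC1 replicate 3 gave 29 and 2, cDC2 replicate 2 gave 30 and 2, and cDC2 replicate 3 gave 28 and 2. Every cDC2 sample lay above every cDC1 sample for 31 members and below for 6. The summed level of the list did not separate the subsets, at 75062 to 83985 in cDC1 and 75004 to 87026 in cDC2. The 170 bases before the start of transcription are shown for 4 members that were higher and for Bst2, which was not called, to display the response element letters that these genes share. Capitals mark each place where GAAA was followed, after any 2 bases, by a second GAAA on either strand. The sequences are from RefSeq on GRCm38.p6, and each is given 5′ to 3′ on the strand of its gene.
Ifit1 (chr19:34640719-34640888, plus strand): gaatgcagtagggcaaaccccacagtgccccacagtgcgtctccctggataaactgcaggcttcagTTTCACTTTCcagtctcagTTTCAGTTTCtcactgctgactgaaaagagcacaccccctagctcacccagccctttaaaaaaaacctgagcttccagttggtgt
Ifit3 (chr19:34583359-34583528, plus strand): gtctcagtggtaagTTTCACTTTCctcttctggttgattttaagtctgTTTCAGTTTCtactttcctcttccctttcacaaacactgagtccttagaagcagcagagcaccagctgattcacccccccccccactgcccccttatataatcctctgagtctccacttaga
Isg15 (chr4:156200819-156200988, minus strand): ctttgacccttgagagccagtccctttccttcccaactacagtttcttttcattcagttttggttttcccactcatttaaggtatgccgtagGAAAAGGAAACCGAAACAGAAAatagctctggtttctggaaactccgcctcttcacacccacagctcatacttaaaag
Rsad2 (chr12:26456453-26456622, minus strand): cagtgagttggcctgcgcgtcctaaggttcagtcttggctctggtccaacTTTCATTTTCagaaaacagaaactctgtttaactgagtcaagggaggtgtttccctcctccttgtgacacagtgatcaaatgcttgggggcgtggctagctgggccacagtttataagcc
Bst2 (chr8:71537473-71537642, minus strand): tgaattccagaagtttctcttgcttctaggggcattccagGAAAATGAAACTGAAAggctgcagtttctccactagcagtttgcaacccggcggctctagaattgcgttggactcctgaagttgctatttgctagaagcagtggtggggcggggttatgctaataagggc
Within the 250 bases before a start, 12 of 21 interferon-stimulated genes that were higher and had a promoter entry held the letters, as did 6 of 11 that were not called, against 3.46% of all 27025 genes with an entry. The share was 5.41% of the 1036 genes called higher and 2.90% of the 724 genes called lower in cDC2 that had an entry. A match describes the letters and not the binding of a factor.

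Ifit1, which encodes a protein that binds viral RNA, had counts of 9.26, 5.92, 9.24 and 13.3 in cDC1 and 177, 352 and 231 in cDC2. Its relative Ifit3 had 21.6, 30.6, 22.2 and 24.5 in cDC1 and 689, 531 and 611 in cDC2. Isg15, a ubiquitin-like modifier, had 287, 252, 223 and 329 in cDC1 and 832, 719 and 637 in cDC2. In these genes and in Rsad2 (3.29), which encodes the antiviral enzyme viperin, every cDC2 sample lay above every cDC1 sample. Bst2, which encodes tetherin, had 753, 677, 1246 and 940.2 in cDC1 and 1213, 542 and 968 in cDC2, with the subsets interleaved. Among the genes of oligoadenylate synthesis, which activates RNase L, Oas2 had 25.7, 58.2, 53.6 and 44.7 in cDC1 and 2432, 2206 and 2733 in cDC2. Oas3 and the relative Oasl2 rose by 3.50 and 4.48. The membrane proteins Ifitm2 and Ifitm3, which block viral entry, rose by 1.93 and 2.73. The rise did not extend to all members. Mx1, an antiviral GTPase, was 3956, 3981, 2878 and 3957 in cDC1 and 2192, 2040.5 and 1758 in cDC2, below in each cDC2 sample but by less than 2-fold. Cxcl10, a ligand of CXCR3, had a log2 fold change of -0.56. The lower member was Cxcl9, induced mainly by interferon gamma.

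Of 50 genes of the cell cycle and DNA replication, 2 were higher and 0 lower in cDC2, with a median log2 fold change of -0.12. For the 0 lower, edgeR also called 0, and 8 members had every cDC2 sample below every cDC1 sample. Mki67, the proliferation marker, had 8391, 10460.1, 5784 and 7974 in cDC1 and 8279, 10852 and 8477 in cDC2. The higher members were Ccnd2, which encodes cyclin D2, with 89.6, 86.8, 86.8 and 95.4 in cDC1 and 937, 1178 and 1261 in cDC2, and E2f2 (2.02). Of 26 genes that respond to tissue dissociation, 10 were higher in cDC2 and 0 lower in limma and edgeR, and the count without cDC2 replicate 3 was 4. Their summed level ranged from 358958 to 521249 in cDC1 and from 474517 to 787771 in cDC2. The transcription factor genes Fosl2 and Atf3 and the NF-kB inhibitor gene Nfkbia rose by 2.39, 1.47 and 1.62, whereas Fos and the heat shock gene Hspa8 had overlapping counts with log2 fold changes of -0.20 and -0.18. For Atf3, the counts were 26319.7, 11214, 23349 and 11493 in cDC1 and 60796, 28753 and 56842 in cDC2, higher in replicates 1 and 3 than in the other replicates of both subsets. The part of cell handling in the differences of Nfkbia, Relb, Rel and Klf4 was not tested.

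**Figure D4:**
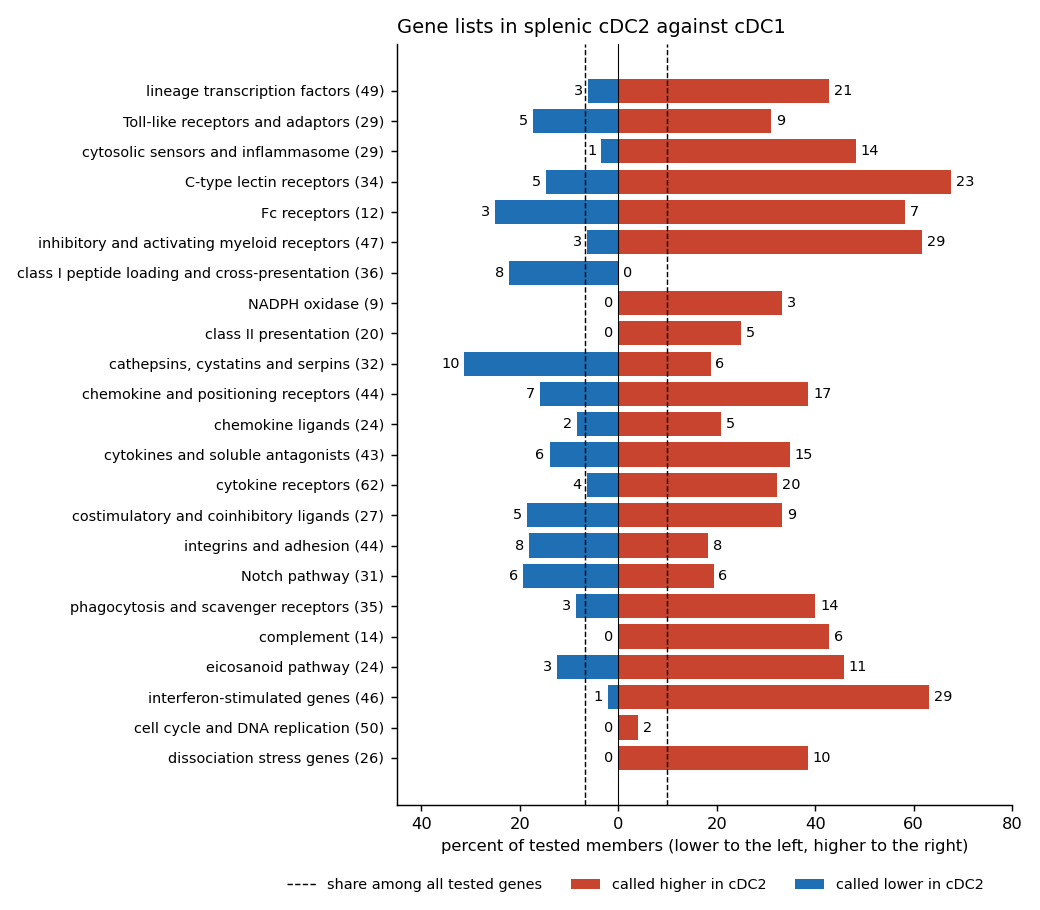
Percent of the tested members of 23 gene lists (number tested in parentheses) that were called higher (red, to the right) or lower (blue, to the left) in splenic cDC2, with the number of genes at each bar, and dashed lines at 9.93% and 6.70%, the shares among all tested genes. C-type lectin receptors, with 23 of 34 higher, reach farthest to the right, and cathepsins, cystatins and serpins, with 10 of 32 lower, farthest to the left.

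Markers of other cells were measured because the labels name fewer exclusions for cDC2, although the study's results define both subsets as F4/80-. Their counts are also to be read against 9.93% higher and 6.70% lower among all tested genes, and several lists have few tested members. Of 16 tested macrophage markers, 10 were higher in cDC2, and their summed level ranged from 2046 to 2477 in cDC1 and from 8785 to 10804 in cDC2. The list holds the gate gene Emr1, which made up a large part of the cDC2 sums. Its counts were 83.1 to 142 in cDC1 and 4486, 4192 and 4923 in cDC2. The complement gene C1qb, typical of macrophages, had 8.24, 37.5, 42.5 and 50.2 in cDC1 and 501, 296 and 533 in cDC2, and C1qa rose by 3.26. Mertk, an engulfment receptor gene, had a log2 fold change of 2.36 with overlapping counts and was not called in 13 of its alternatives. Siglec1, Cd5l, Marco, Slc40a1, Vcam1 and Hmox1, markers of splenic macrophage types, were not called. Other such markers, Spic and Cd163, were among the higher ones. Cd163 had 18.5, 32.5, 14.8 and 24.8 in cDC1 and 168, 104 and 192 in cDC2. Of 16 monocyte markers, 11 were higher and 1 lower, or 10 and 2 without cDC2 replicate 1, with summed levels of 11762 to 14646 in cDC1 and 52765 to 67182 in cDC2. Lyz2, the lysozyme of phagocytes, had 3709, 4346, 3869.6 and 4469 in cDC1 and 18503, 12224 and 15456 in cDC2. Spn, which encodes CD43, rose by 1.94, but was not called without cDC2 replicate 1 or 3. Ly6c2, of classical monocytes, had 48.4, 62.1, 90.5 and 87.2 in cDC1 and 56.7, 11.9 and 34.2 in cDC2, with no call. Neutrophil markers summed to 36.4 to 69.0 in cDC1 and 1256 to 2037 in cDC2, with 3 of 6 tested members higher. Most of the cDC2 sums was Csf3r, with 1281, 1046 and 1608, while S100a8 and S100a9 had at most 3 reads in every splenic sample. Of 10 NK cell and innate lymphoid markers 6 were higher, with summed levels of 2488 to 4198 in cDC1 and 2586 to 4545 in cDC2. Gzma, a granzyme gene, had 1.03, 0, 0 and 0 in cDC1 and 165, 66.9 and 88.0 in cDC2, at least 42.7-fold higher. Nkg7, a gene of cytotoxic granules, was at 0 in all cDC1 samples and at 41.2, 5.0 and 17.9 in cDC2. Of 16 T cell markers 7 were higher and 1 lower (sums of 361 to 586 and 592 to 806), among the higher Cd28, which had 3 reads or fewer in each splenic sample. Of 8 B cell markers 3 were higher and 1 lower (6307 to 8427 and 5079 to 6666). Among 12 plasmacytoid DC markers 1 was higher and 5 lower (5237 to 8521 and 3083 to 4308), Siglech among the latter (-1.82, limma adjusted p = 0.0739), whose call was lost in 7 alternatives. The count of higher markers of this list was 0 in edgeR and without cDC1 replicate 1, 2 or 3 or cDC2 replicate 1 or 2. Of 5 erythroid and platelet markers 1 was higher and 1 lower (92.6 to 208 and 162 to 223), with 0 lower without cDC1 replicate 2, 3 or 4. Of 3 basophil and mast cell markers 1, Il6ra, was higher (10454 to 12357 and 14789 to 18249), with Mcpt8, Prss34, Cpa3, Fcer1a, Ms4a2 and Gata2 at 3 reads or fewer in every splenic sample. The part that other cells in the sorted fractions may have in the rises of Csf1r, Ace, Csf3r, Cx3cr1, C3, Axl and the Fc receptor genes was not tested.

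The same comparison in immature thymic cDCs, with 4 cDC1 and 3 cDC2 samples, shows which differences were shared between tissues. These samples do not enter the splenic fold changes. Both comparisons use the same estimate of the spread of each gene, however, so that their calls are not independent of each other. The 4 thymic cDC1 samples came from 3 pools. Replicates 3 and 4 of thymic cDC1 share pool, index and lane, with a chi-square of 92.8 per degree of freedom. They were not averaged, so that p values of the thymic comparison and of the tissue difference treat them as separate samples. Over all tested genes 16.4% were called in the thymus. Of the genes called in the spleen, 60.2% were called in the thymus, and of those called in the thymus 61.0% were called in the spleen, with 1469 genes in the same direction and 29 in opposite directions. The difference of the 2 fold changes was itself tested, and 4.98% of all genes were called, 256 (1.71%) with a higher and 490 (3.27%) with a lower log2 fold change in the spleen. Of the 2489 genes called in the spleen, 425 (17.1%) also differed from the thymus by this test. All 29 genes of opposite direction were among those that differed, which their selection by calls of opposite sign largely fixed in advance.

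Several genes lower in splenic cDC2 were higher in thymic cDC2. Flt1, a receptor of vascular endothelial growth factor, had 1269, 1168, 973 and 976 in splenic cDC1 and 56.7, 23.7 and 78.2 in splenic cDC2, against 236, 212, 151 and 279.9 in thymic cDC1 and 2979, 2254 and 2565 in thymic cDC2. The difference between its log2 fold changes was -8.08 ± 0.45 (SE), with limma adjusted p = 6.67e-10. Opposite directions were also found for the lectin gene Cd209e (-1.77 in the spleen, a call that was lost without cDC2 replicate 3, and 5.60 in the thymus), the phosphatase gene Ptprf (-2.84 and 3.78) and 1600029D21Rik (-3.13 and 4.52). Cxcr2, a neutrophil chemokine receptor, had at most 4.37 normalized counts in splenic samples and a log2 fold change of 7.05 in the thymus. In the other direction, Mmp14, a membrane metalloproteinase, had 18.5, 7.89, 19.4 and 6.27 in splenic cDC1 and 512, 364 and 666 in splenic cDC2, against 1430.2, 1796, 1727 and 1331 in thymic cDC1 and 3043, 1739.6 and 2544 in thymic cDC2. The adaptor gene Dok3 had log2 fold changes of 4.72 in the spleen and -0.27 in the thymus. For Mmp14 and Dok3 the differences were 4.69 and 5.0, with limma adjusted p = 8.07e-06 and 0.00469. Padi1, which encodes a peptidylarginine deiminase, BC051142 and Cdc42bpg were not called in the spleen and had log2 fold changes of -7.39, -3.83 and -3.70 in the thymus.

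Some lineage genes differed in the size of the change between tissues. Irf4 had a log2 fold change of 2.20 in the spleen and 5.77 in the thymus, where its counts were 272, 206, 78.0 and 199 in cDC1 and 8542, 10832 and 9003 in cDC2. The difference of -3.57 ± 0.40 (SE) was called at limma adjusted p = 9.37e-06. For Sirpa, Zeb2 and Spib the difference was -1.64, -2.05 and -2.53, that is a larger fold change in the thymus, although that of Zeb2 was not called with the pool as a block. The mean counts of these 3 genes in cDC2 were lower in the thymus, at 15302, 3557 and 1556 against 22676, 5856 and 1988 in the spleen. In cDC1 they were 234, 57.8 and 53.1 in the thymus and 1092, 331 and 384 in the spleen. Irf8 was -5.15 in the spleen and -4.49 in the thymus, and Xcr1 -8.09 and -6.56, and the differences were not called. Several genes lower in splenic cDC2 had a smaller fold change in the thymus, and the differences were called. Cd8a changed by -6.25 in the spleen and -2.63 in the thymus, Itgae by -6.11 and -1.53, P2ry14 by -6.43 and -1.75, and Gpr171 by -4.13 and -0.06. Ddx58, Oas2, Oas3 and Rsad2 had larger fold changes in the spleen, by 1.13, 2.01, 2.40 and 1.62, although the call of Oas2 was lost in 8 alternatives and that of Ddx58 in 1. A larger fold change is not a higher level in splenic cDC2. For Ddx58, mean counts were 100 in cDC1 and 2071 in cDC2 of the spleen, and 407 and 3766 in the thymus. The list of interferon-stimulated genes had 15 of 46 genes with a called difference in either direction. The share was 4.98% of all genes and 17.1% of those called in the spleen. Cxcl9 and Cxcl10 of this list had lower log2 fold changes in the spleen, by -1.73 and -1.85.

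**Figure D5:**
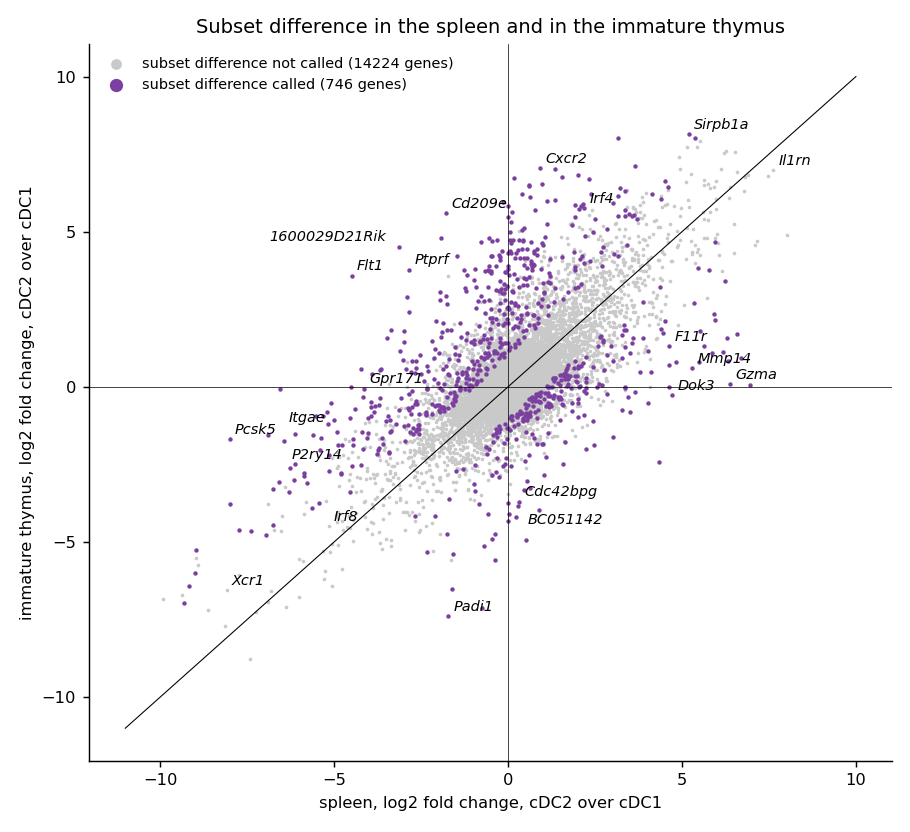
Log2 fold change of cDC2 over cDC1 in the spleen (x axis, 4 and 3 samples) and in the immature thymus (y axis, 4 and 3 samples) for 14970 genes, with the diagonal marking equal fold changes and the 746 genes whose fold changes differed between tissues in purple. Flt1, Cd209e and Ptprf lie in the upper left quadrant, lower in splenic and higher in thymic cDC2, and Mmp14, Dok3 and Gzma lie far to the right near the horizontal line.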

How the data were processed

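The data were RNAseq libraries of FACS-sorted cDCs, prepared with a stranded mRNA kit. The authors trimmed reads (Cutadapt) and mapped them to mm10 (STAR, version 2.6 per the submitters' processing notes). HTSeq-count gave a read count per Ensembl gene, and DESeq2 (version 1.24.0) the normalization. The deposited values are a signal, the read count of each of 37734 genes divided by 1 size factor per library, and division by the value of 1 read gave back whole reads for 100% of the values of every splenic library within a tolerance of 0.01. The Ensembl release and the strand setting of the counting are not given in the sources used here.

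Values were put on the log2 scale after adding a pseudocount of 1 and fitted with limma (version 3.58.1 in R 4.3.3, lmFit and eBayes with an intensity trend) over 20 samples of 6 groups. The 14970 genes that reached a value of 10 in 3 or more samples were tested. Contrasts were splenic cDC2 minus cDC1, immature thymic cDC2 minus cDC1 and the difference between both. Called genes had a p below 0.1 after Benjamini-Hochberg adjustment over all tested genes and changed by more than 2-fold. edgeR (version 4.0.16, quasi-likelihood test) and DESeq2 (version 1.42.0) on the recovered reads were alternatives, with other pseudocounts, filters, thresholds, pool and lane terms and the omission of each sample. Steps were tested on simulated data. No set test was run.

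Named genes were members of hand-written lists, and the 12 largest rises and falls among called genes with a mean of at least 100 and no overlap, or the 5 largest of each sign for the difference between tissues. Some members of the lists are not reported by name here. The members compared and the lists were chosen with earlier results of these data known. Gene positions and exon overlaps are from GENCODE M21, and promoters from RefSeq, both on GRCm38, the mm10 assembly. A count of 3 reads or fewer was taken as the floor. The libraries carry no molecular identifiers named in the study's methods, so that such floors cover counting error only.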

Additional observations from a re-analysis of the deposited data

Results flagged for a closer look

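Within the 4 splenic cDC1 samples, 19 of the 212 named genes had 1 sample whose gap to the others exceeded the 95% limit of Dixon's test, which chance alone gives in about 1 in 20 groups, and 15 of the 19 were set apart by replicate 3. Replicate 3 was highest for the NF-kB gene Relb (2619 normalized counts), the antigen presentation genes Tap1 (15051), Tap2 (9071) and Cd74 (473960), the sensor gene Tlr12 (2423), the cytokine pathway genes Ltb (799.8) and Il21r (229.96), the Notch pathway genes Notch4 (5861), Dtx1 (293) and Cd4 (783), and Alox5 (21.2), Ifitm2 (311), Ttc39a (3248) and Ptprf (120.1). It was lowest for the interferon-stimulated gene Mx1 (2878). Replicate 1 was lowest for C1qa (10.3) and highest for Gzma (1.03), replicate 2 was highest for Plce1 (1296), and replicate 4 was highest for S1pr5 (0.803). The counts of Gzma and S1pr5 rest on 1 and 2 reads. What replicate 3 has in common with these genes was not tested.

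For 62 of the 212 named genes the cDC2 over cDC1 fold change differed between spleen and thymus in the test of the difference itself, 23 with a higher and 39 with a lower log2 fold change in the spleen, against 4.98% of all tested genes. The named genes include 10 chosen for the size of this difference. Others were named for a large splenic fold change, which is part of the difference, so that a share above that of all genes is built in. Among the 2489 genes called in the spleen, 17.1% differed. The following values are the splenic minus the thymic log2 fold change.

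Among markers and transcription factors, the difference was -1.64 for Sirpa, -1.92 for Cd24a, -3.62 for Cd8a, 2.70 for Esam, -1.29 for Id2, -3.57 for Irf4, -2.05 for Zeb2, -2.53 for Spib, 1.29 for Relb, 1.21 for Nfkbia and 1.43 for E2f2. For sensors and lectins it was -3.70 for Tlr5, -1.69 for Tlr12, 1.13 for Ddx58, -2.88 for Ifi205, -2.17 for Ly75, -4.24 for Clec4b2 and -7.37 for Cd209e. Fcrla differed by -4.06, Sirpb1a by -2.96 and Treml4 by 2.05. In antigen processing, Pdia3 differed by -1.07, Cybb by -1.92, Ncf4 by 1.45, H2-Eb2 by 2.17, Naaa by -1.99, Serpinb8 by -2.96 and Serpinb6b by -2.72.

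Positioning receptors and chemokines gave -4.68 for P2ry14, -4.07 for Gpr171, -2.05 for Ccr9, 4.88 for S1pr5, -6.14 for Cxcr2, -1.73 for Cxcl9, -1.85 for Cxcl10 and 2.53 for Ccl5. Cytokine and costimulation genes gave -1.30 for Il12b, 2.39 for Vegfa, 1.23 for Tnfsf9 and -1.91 for Ifnlr1. Adhesion and Notch genes gave -4.58 for Itgae, -3.67 for Itga1, 3.32 for F11r, -1.24 for Cadm3 and 2.08 for Jag1. Interferon-stimulated genes gave 2.01 for Oas2, 2.40 for Oas3 and 1.62 for Rsad2, and the granzyme gene Gzma gave 6.30.

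Among the genes named for the size of their fold change, the difference was -2.34 for Ttc39a, -2.73 for Leprel1, -3.00 for A530099J19Rik, -3.71 for Gramd2 and -6.32 for Pcsk5. Those named for the size of the difference gave -8.08 for Flt1, -7.65 for 1600029D21Rik, -6.62 for Ptprf, 5.68 for Padi1, 5.0 for Dok3, 4.69 for Mmp14, 4.12 for BC051142 and 4.03 for Cdc42bpg. Of the 62 genes, those whose call was lost in at least 1 alternative were Cadm3, Cxcr2, Ddx58, Esam, Nfkbia, Oas2, Padi1, Pcsk5, Pdia3, Relb, S1pr5, Tlr12, Tlr5, Tnfsf9, Treml4 and Zeb2.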

How the results depend on the processing

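The number of genes called in the spleen was 2489 with limma and moved by more than 1.5 times with the fold threshold only, to 4394 (2388 higher and 2006 lower) with none and to 1258 (774 and 484) at 4-fold. Likewise 428 genes (112 and 316) in place of 746 differed between tissues at 4-fold. On recovered reads, edgeR called 2533 genes, of which 2383 were also called by limma, and DESeq2 2632, of which 2403 were. A limma fit of the splenic samples only called 2663 genes, of which 2396 were also called in the main fit. With each sample left out in turn, the splenic count ranged from 2240 to 2532 (1286 to 1569 higher, 935 to 1004 lower), the count for the tissue difference from 592 to 859 (188 to 357 higher, 389 to 530 lower), and the members of all 35 lists, markers included, called from 271 to 307 higher and 80 to 88 lower.

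Genes that were not called changed sign in some fits. Leaving out 1 sample gave log2 fold changes of -0.0506 to 0.37 for Tlr13, -0.0371 to 0.48 for Cd74, -0.0634 to 0.22 for Ciita, -0.28 to 0.30 for Bst2 and -0.0978 to 0.84 for Cdc42bpg. Bst2 was also at 0.0064 with DESeq2, at 0.00520 with edgeR's RLE scaling, at 0.0458 with the lane as covariate and at 0.00562 with the pool as block. The cause was not tested.

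Samples of both subsets share pool numbers 2, 4 and 9. With the pool as replicate block, 2738 genes were called in the spleen, 2388 of them also without the block. The correlations of deviations were 0.00656 and -0.0781 in pool 2, 0.246 in pool 4 and 0.461 in pool 9, so that not every pair was above 0.1. The cDC2 sample of pool 9 correlated best with its own number, and that of pool 2 did not. That of pool 4 correlated about equally with its own number and with cDC1 replicate 4 of pool 2, at 0.246 and 0.244. The samples were not treated as paired. Depth limits genes with few reads, for which at least-fold bounds were given.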

Other observations

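Of the 29 genes called in opposite directions in the spleen and the immature thymus, 21 were lower in splenic and higher in thymic cDC2, and 8 were higher in splenic and lower in thymic cDC2. These genes were picked after their values were seen. The death receptor gene Fas had log2 fold changes of -1.19 in the spleen and 1.73 in the thymus, the interleukin-9 receptor gene Il9r -1.91 and 1.60, the tight junction gene Ocln -2.06 and 2.14, and the interferon-induced GTPase gene Tgtp1 -1.34 and 1.60. Plek2, a relative of pleckstrin, had -1.96 and 3.06, and Psd3, an exchange factor of ARF6, had -1.95 and 2.79. In the other direction, Dmrtb1 had 4.35 in the spleen and -2.43 in the thymus, the cartilage matrix gene Matn1 2.24 and -1.99, and the semaphorin gene Sema4b 1.14 and -1.49. All 29 differences were called in limma, which the selection by calls of opposite sign largely fixed in advance.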
